A study of Malus domestica with 16 samples.

Results

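The transcripts described here are the glutathione S-transferase (GST) and In2-1 genes that the study placed in its network of transcription factors, genes, proteins and metabolites in apple peel. They are 8 gene models of Malus domestica: 5 of class tau, namely GSTU8 (MDP0000178304), GSTU8 (MDP0000805474), GSTU8 (MDP0000766223), GSTU25 (MDP0000722969) and GSTU21 (MDP0000566567), 2 of class phi, namely GSTF8 (MDP0000256360) and GSTF12 (MDP0000252292), and 1 In2-1 gene (MDP0000188674). Each has 1 sense probe on the array, among 59352 sense probes and 133709 probes in all, and each also has 1 antisense probe. The names follow the legend of the study's network, but its text is not uniform: it also speaks of MDP0000722969 and MDP0000188674 as lipid transfer proteins. The study selected these genes on the same arrays, so the direction of their calls is not independent evidence.

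GST enzymes couple the tripeptide glutathione to electrophilic compounds, and some of them also reduce organic peroxides with glutathione as the electron donor. Class tau and class phi are the large plant classes: tau members are known for the detoxification of herbicides and other foreign compounds, and phi members for stress responses and for flavonoid transport. In2-1 was described in maize as a gene induced by herbicide safeners, and its protein is related to GSTs. Ozone breaks down in plant tissue into reactive oxygen species, and ethylene, whose perception 1-MCP blocks, drives apple ripening.

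Peel RNA came from wild-type 'Granny Smith' apples, harvested at physiological maturity. All 4 groups shared cold storage at 0°C and 95% humidity that lasted 6 months. Control fruit received no other treatment, 1-MCP fruit were exposed to 1-methylcyclopropene for 24 h before storage, O3 fruit were stored in air with 0.3 μl/L of O3, and 1-MCP+O3 fruit received both. Each group had 2 RNA extracts, called A and B, from samples that the methods describe as 7 apples each, and the extracts were hybridized in pairs to 8 two-colour arrays. Every comparison had an array of the A extracts, with the first-named group in Cy3, and an array of the B extracts, with it in Cy5, so that dye and extract cannot be told apart within a comparison. By the methods, fruit with and without O3 were kept in separate cold rooms, so the room and O3 cannot be told apart. The labels do not say whether extracts A and B of a group came from separate lots of fruit, and p-values then measure only the spread between these samples. Peel is a mixture of cell types, and fewer cells of a type and less RNA per cell cannot be told apart in these data.

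The 8 sense probes gave usable signals in nearly every sample. Of the 16 channels, 16 were well above background for 6 of the genes, 15 for GSTU8 (MDP0000805474) and 12 for GSTF12 (MDP0000252292), and none was saturated. Of all spots on an array, Cy3 had 47.8% to 54.9% above background and Cy5 36.1% to 43.6%, and precision is limited by having 2 arrays for each comparison. All 5 marker genes used as a check of the tissue were above background in every channel of Control, O3 and 1-MCP+O3 peel and 4 of them in 1-MCP peel. They included the farnesene synthase AFS1 and chalcone synthase, both typical of apple peel, and PSAD-2 and rubisco activase, which mark chloroplasts.

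To see where each gene was high or low, channel levels were taken from both dyes after normalization, as log2 values of an arbitrary intensity. They order the 4 groups within a gene and say nothing of one gene against another. All 8 genes had their highest mean level in O3 peel and their lowest in 1-MCP peel. Over all sense probes, 23% had O3 as the highest group, 29% had 1-MCP as the lowest and 13% had both. The O3 extracts lay above both extracts of the next group for 7 of the 8 genes, and the 1-MCP extracts below both extracts of the group above for 6. Overlap was judged on extract levels, each the mean of its channels. How many of all sense probes were separated in this way was not computed, so these counts only describe the members.

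The GSTU8 gene MDP0000178304 spanned the widest range. Its log2 level was 11.66 and 12.11 in the Control extracts A and B, 8.97 and 8.08 in 1-MCP, 13.08 and 12.89 in O3, and 10.84 and 11.16 in 1-MCP+O3. These extract levels did not overlap between groups, and the means of O3 and 1-MCP differed 22.0-fold. Single channels did overlap. Those of Control ran from 10.81 to 12.72, those of O3 from 12.43 to 13.36, and those of 1-MCP+O3 reached 11.75. A second GSTU8 gene, MDP0000805474, had the same order, with levels of 8.74 and 9.17 in Control, 7.11 and 6.50 in 1-MCP, 11.30 and 10.66 in O3, and 7.90 and 8.68 in 1-MCP+O3. Its extract levels did not overlap between groups either and its span was 18.1-fold, although 1 of the 2 channels of 1-MCP peel was not well above background.

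The other 3 tau genes moved over a smaller range. GSTU8 (MDP0000766223) was at 12.87 and 12.53 in Control, 12.24 and 11.47 in 1-MCP, 14.38 and 13.49 in O3, and 13.57 and 13.17 in 1-MCP+O3, a span of 4.24-fold between the highest and the lowest mean. Here the extracts of O3 and 1-MCP+O3 overlapped, whereas Control and 1-MCP lay apart below them. GSTU25 (MDP0000722969), whose Arabidopsis namesake can detoxify explosives, was at 11.82 and 12.36 in Control, 11.83 and 11.39 in 1-MCP, 13.11 and 12.75 in O3, and 12.48 and 12.33 in 1-MCP+O3. Only O3 stood apart, since Control overlapped both of its neighbours in the order. GSTU21 (MDP0000566567) was at 13.33 and 13.28 in Control, 12.91 and 13.19 in 1-MCP, 14.61 and 13.98 in O3, and 13.36 and 13.90 in 1-MCP+O3. Its 4 groups did not overlap, with a span of 2.37-fold.

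Of the phi genes, GSTF8 (MDP0000256360), whose Arabidopsis namesake is a widely used marker of early stress responses, had levels of 13.21 and 13.44 in Control, 12.27 and 12.42 in 1-MCP, 13.92 and 13.76 in O3, and 13.08 and 13.31 in 1-MCP+O3. Control and 1-MCP+O3 overlapped, with O3 above and 1-MCP below them. GSTF12 (MDP0000252292) takes its name from the Arabidopsis GST that is needed for anthocyanin to reach the vacuole. It was the dimmest probe, at 6.72 and 7.07 in Control, 6.02 and 6.12 in 1-MCP, 8.18 and 7.77 in O3, and 6.16 and 6.71 in 1-MCP+O3. Neither channel of 1-MCP peel was well above background for it, whereas all 4 channels of O3 peel were. In2-1 (MDP0000188674) was at 13.55 and 13.85 in Control, 13.48 and 13.87 in 1-MCP, 14.80 and 14.66 in O3, and 13.68 and 14.16 in 1-MCP+O3. For In2-1 only O3 stood apart, and the other 3 groups overlapped.

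**Figure D1:**
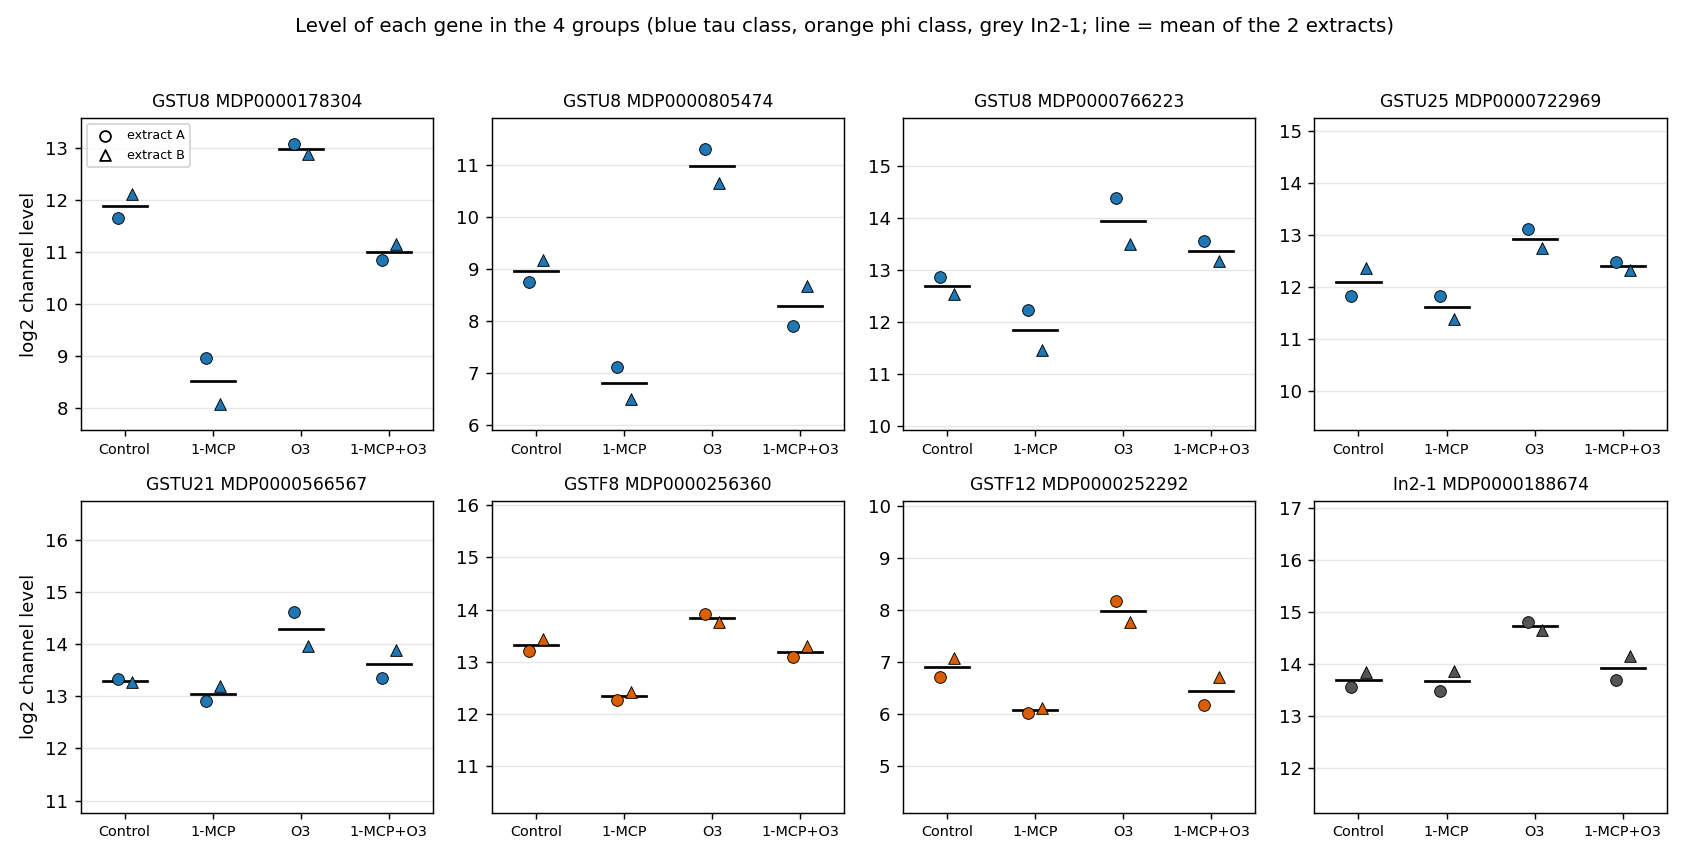
Log2 channel level (vertical axis, arbitrary intensity after normalization) of the 8 sense probes in the 4 groups, with extract A as a circle, extract B as a triangle and a line at their mean. Each panel spans the same number of log2 units but has its own offset, so levels are compared within a panel, and in all 8 panels the mean is highest in O3 and lowest in 1-MCP.

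Whether O3 alone altered these transcripts was asked in O3 vs Control. All 8 genes were higher in O3 peel, on 16 of 16 gene-by-array ratios, by a median log2 ratio of 1.15, which is 2.22-fold. Over all sense probes the median ratio was close to 0, and 23.6% were higher on both arrays. At the study's threshold, an unadjusted p under 0.01 in limma, 5 of the 8 were called higher, where 1.71% of all sense probes were. GSTU8 (MDP0000766223) had log2 ratios of 1.06 on array A and 1.18 on array B, and rose by 1.12 ± 0.08 (SD, n = 2). In2-1 had 1.33 and 1.13 and rose by 1.23 ± 0.14. The called genes also included GSTU21, with 1.06 and 0.84, GSTF8, with 0.83 and 0.62, and GSTU8 (MDP0000805474), with 2.42 and 1.67. For these 5 genes the gap to Control was larger than the distance between the arrays, which also held, narrowly for GSTU25 and GSTF12, for the genes not called.

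The other 3 genes were higher in O3 peel on both arrays without passing the test. GSTU8 (MDP0000178304) had log2 ratios of 2.47 on array A and 1.22 on array B, a mean of 3.59-fold that was 2.15-fold from extract levels. GSTU25 had 1.65 and 0.56, and GSTF12 had 1.75 and 0.60. In each of them the arrays lay far apart, and over the 8 genes array A gave the larger ratio for 7. After Benjamini-Hochberg adjustment in limma, the adjusted p of the members ran from 0.61 to 0.87, and 0 sense probes of the array passed 0.05, here or in any other comparison. With limma's trend and robust options 480 sense probes passed it in O3 vs Control, 2 of the members among them. At an unadjusted p under 0.05 in limma, 6 of the 8 members passed, as did 5133 of all 59352 sense probes. The median log2 ratio of the 8 genes was 0.99 without replicate A and 1.49 without replicate B.

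In 1-MCP vs Control the question was what blocking ethylene perception before storage did. All 8 genes were lower in 1-MCP peel, again on 16 of 16 ratios, by a median log2 ratio of -0.85, which is 1.81-fold (14 of 14 ratios and a median of -0.80 without GSTF12, which was not above background in 1-MCP peel), and 24% of all sense probes were lower on both arrays. The call was passed by 2 of the 8 genes, both lower, against 2.37% of all sense probes. GSTU8 (MDP0000178304) had log2 ratios of -3.14 on array A and -4.64 on array B, a fall of 14.8-fold at the mean of -3.89 ± 1.06 (SD, n = 2). GSTF8 had -1.14 and -1.36 and fell 2.38-fold. Both were lower by more than the arrays differed, as was every gene not called except GSTU25.

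Of the genes not called, GSTU8 (MDP0000805474) had -1.53 and -2.77, GSTF12 -0.71 and -1.10, GSTU8 (MDP0000766223) -0.50 and -1.10, and GSTU21 -0.57 and -0.41. Because GSTF12 was not well above background in 1-MCP peel, the size of its fall there was not settled. The fitted mean was 1.87-fold lower (adjusted p = 0.33, limma), and the log2 ratio ran from -3.08 to -0.71 over the alternatives. With the authors' processed signals the mean was -3.08 for GSTF12 and -3.28 for GSTU8 (MDP0000805474). GSTU25 had -0.19 and -1.22, values too far apart to set a size. In2-1 had -0.19 and -0.12, a mean of -0.16 ± 0.05, and was the member closest to no difference. The adjusted p in limma ran from 0.22 to 0.97 over the 8 genes. At an unadjusted p under 0.05, 6 of these genes passed, as did 7240 of all 59352 sense probes. The median log2 ratio of the 8 genes was -1.16 without replicate A and -0.64 without replicate B. The same comparison had the chloroplast markers PSAD-2 and rubisco activase higher in 1-MCP peel, by log2 ratios of 4.30 and 3.69, and both were called. AFS1, saturated in 3 of its 16 channels, was below 0 on both arrays and not called. Chalcone synthase, not above background in 1-MCP peel, was called lower, at a mean of -0.91. The last marker, a lipid transfer protein (MDP0000549134), had a mean of -0.31 and was not called. Their sum therefore mixes markers that went opposite ways. The summed log2 level of the 5 tissue markers was 45.8 to 46.4 in the Control extracts and 49.4 to 50.6 in the 1-MCP extracts, and its part in the GST ratios was not tested.

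With both treatments combined, the median of the 8 genes lay closer to Control than with either alone. In 1-MCP+O3 vs Control 5 of them were higher and 3 lower, and such mixed signs draw a median toward 0. GSTU21, at a mean of 0.54, and In2-1, at 0.24, were farther from Control than with 1-MCP alone, at -0.49 and -0.16. The other members were closer to Control than with either treatment alone. The median log2 ratio was 0.21, and only 2 of the 8 were called, both lower, against 1.57% of all sense probes. These were GSTU8 (MDP0000178304), at -0.65 on array A and -0.67 on array B, and GSTU8 (MDP0000805474), at -0.73 and -0.91. Neither call was kept with processed signals or with median centring. In limma 3 of the 8 genes passed an unadjusted p under 0.05, as did 6380 of all 59352 sense probes. The highest ratios were those of GSTU21, at 0.12 and 0.96, and of GSTU8 (MDP0000766223), at 0.41 and 0.52. GSTF8 had 0.35 and 0.03, GSTF12 -0.01 and -0.23, and In2-1 0.05 and 0.43. GSTU25, at 0.70 and -0.011, was the single gene whose arrays pointed in opposite directions. A p that misses the threshold does not show that these genes were equal to Control.

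**Figure D2:**
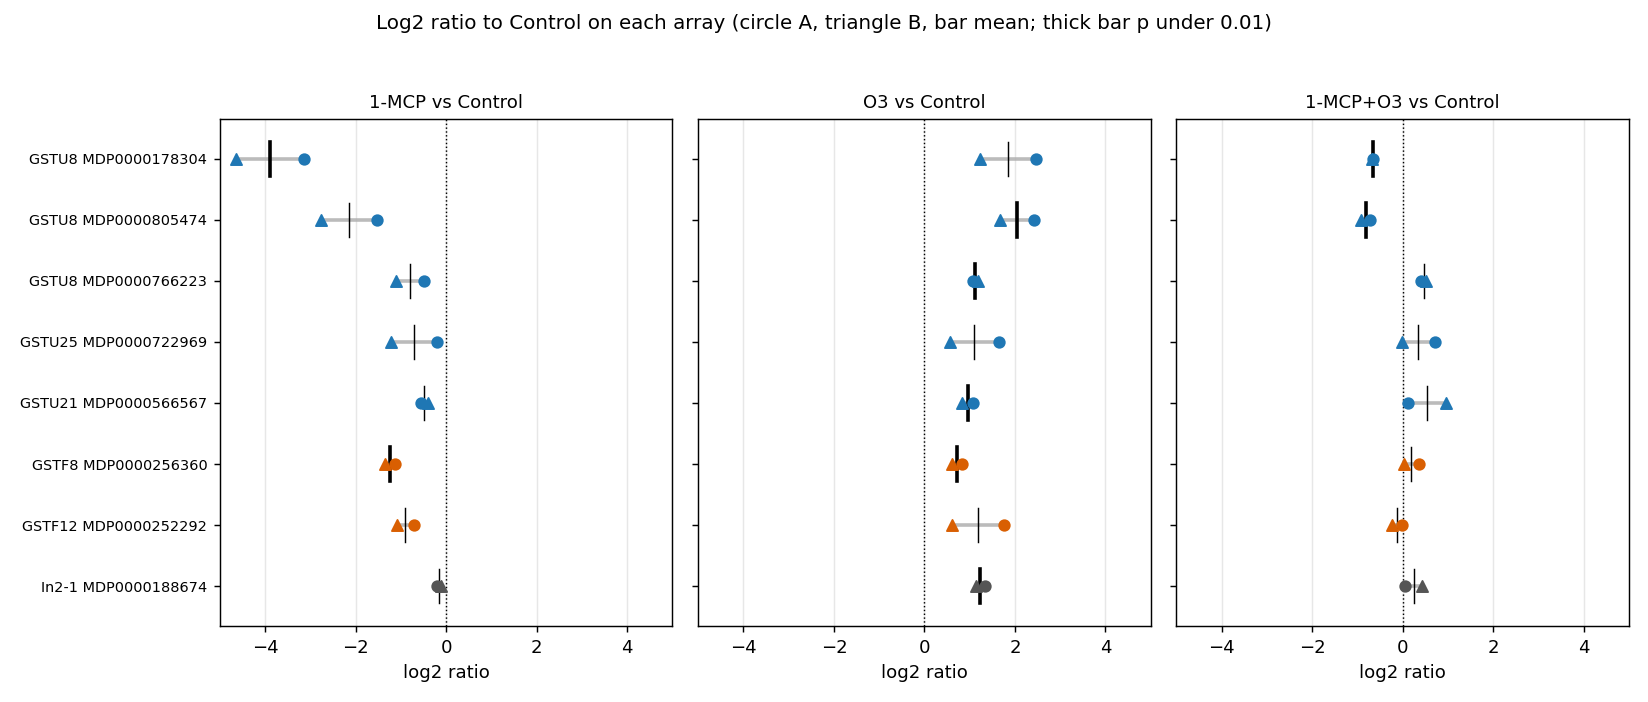
Log2 ratio to Control (horizontal axis) of the 8 sense probes after 1-MCP, O3 and both, with array A as a circle, array B as a triangle and a bar at the mean, thick where the unadjusted p in limma was under 0.01 (blue tau, orange phi, grey In2-1). All 16 points lie below 0 after 1-MCP and above 0 after O3, and after both treatments 9 lie above and 7 below.

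The effect of O3 could also be read in fruit that had received 1-MCP. No array held that pair, so 1-MCP+O3 vs 1-MCP was taken as the difference of their ratios to the same Control extract within each replicate, a step in which the dye cancels but the noise of both arrays adds up and slide 2 is set against slide 1. All 8 genes were higher in 1-MCP+O3 peel, in 16 of 16 values, with a median log2 ratio of 1.16. That median stood at 1.15 in O3 vs Control, which has neither treated extract in common with it. Of the 8 genes, 7 were called higher, against 2.02% of all sense probes. Without GSTF12, which was not above background in 1-MCP peel, these were 6 of 7, with a median of 1.26.

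GSTU8 (MDP0000178304) again led, with log2 differences of 2.49 in replicate A and 3.97 in replicate B, a rise of 9.38-fold at the mean of 3.23 ± 1.05 (SD, n = 2) that was 5.56-fold from extract levels. GSTF8 rose by 1.44 ± 0.07, from 1.49 and 1.39, the closest agreement between replicates. GSTU25, not called in O3 vs Control, rose by 1.06 ± 0.22, from 0.90 and 1.21. GSTF12 passed the call as well but is given no size, since 0 of its 2 channels in 1-MCP peel were above background and the fitted log2 difference ran from 0.37 to 2.97 over the alternatives. The remaining called genes were GSTU8 (MDP0000805474), with 0.80 and 1.86 and a mean of 1.33 that was 2.17 with processed signals, GSTU8 (MDP0000766223), with 0.91 and 1.62, and GSTU21, with 0.68 and 1.37. In2-1, at 0.24 and 0.56, was not called, although it was among the called genes after O3 alone. The adjusted p in limma was 0.27 at the lowest and 0.54 at the highest. Without replicate A the median log2 difference of the 8 genes was 1.38, and without replicate B it was 0.85.

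Conversely, 1-MCP+O3 vs O3 gave the effect of 1-MCP in fruit stored with O3, on extracts that 1-MCP vs Control does not share. All 8 genes were lower with 1-MCP, on 16 of 16 ratios, by a median log2 ratio of -1.16, and 3 of the 8 were called lower, against 1.71% of all sense probes. GSTU8 (MDP0000178304) had -2.59 on array A and -2.80 on array B, a fall of 6.47-fold that was 3.96-fold from extract levels. GSTU25 fell by 0.74 ± 0.05 (SD, n = 2), from -0.77 and -0.70. GSTF12 had -1.26 and -1.28, but 1 of its 2 channels in 1-MCP+O3 peel was not above background on these arrays, and the fitted ratio ran from -3.41 to -1.20 over the alternatives. It was lower under all of them, with an unsettled size.

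The largest mean of this comparison belonged to GSTU8 (MDP0000805474), with -3.38 and -2.10, which did not pass the call. GSTU8 (MDP0000766223) had -1.58 and -0.91, with a mean of -1.24 that was -0.57 from extract levels. GSTU21 had -1.63 and -0.51, In2-1 -1.12 and -0.59, and GSTF8 -0.73 and -0.52. In2-1, nearly level in 1-MCP vs Control, was thus 1.81-fold lower with 1-MCP in the presence of O3, by a ratio that was not called. The adjusted p in limma ran from 0.42 to 0.93. An unadjusted p under 0.05 was passed by 7 of the 8 genes and by 5392 of the 59351 sense probes tested. Without replicate A the median log2 ratio of the 8 genes was -0.80, and without replicate B it was -1.42. PSAD-2 and rubisco activase were again higher with 1-MCP, by log2 ratios of 3.61 and 3.34. The other markers had means below 0 and were not called, with AFS1 at -2.66, chalcone synthase at -0.91 and the lipid transfer protein at -0.50. The summed level of the 5 tissue markers was 47.6 to 48.2 in the O3 extracts and 51.1 to 51.9 in the 1-MCP+O3 extracts. Their part in the GST ratios was not tested.

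The interaction of 1-MCP and O3 asked whether 1-MCP acted differently with and without O3, as the ratio of 1-MCP+O3 to O3 minus that of 1-MCP to Control. None of the 8 genes was called by limma, where 1.55% of all sense probes were. Among the 4095 of 59351 sense probes that passed an unadjusted p under 0.05 were 3 of the 8 genes. These were GSTU8 (MDP0000178304), with 0.56 in replicate A and 1.84 in replicate B, GSTF8, with 0.41 and 0.84, and In2-1, with -0.93 and -0.47. A fit of all 8 arrays with a dye term called the same 3 genes, but that fit takes repeated hybridizations of one extract as independent. None of the 3 values was called and their lowest adjusted p in limma was 0.94, so no difference in response is set for them. For GSTU8 (MDP0000805474), GSTU8 (MDP0000766223) and GSTU25 the replicates had opposite signs, so that no direction could be set. This contrast sets arrays of slide 2 against arrays of slide 1.

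**Figure D3:**
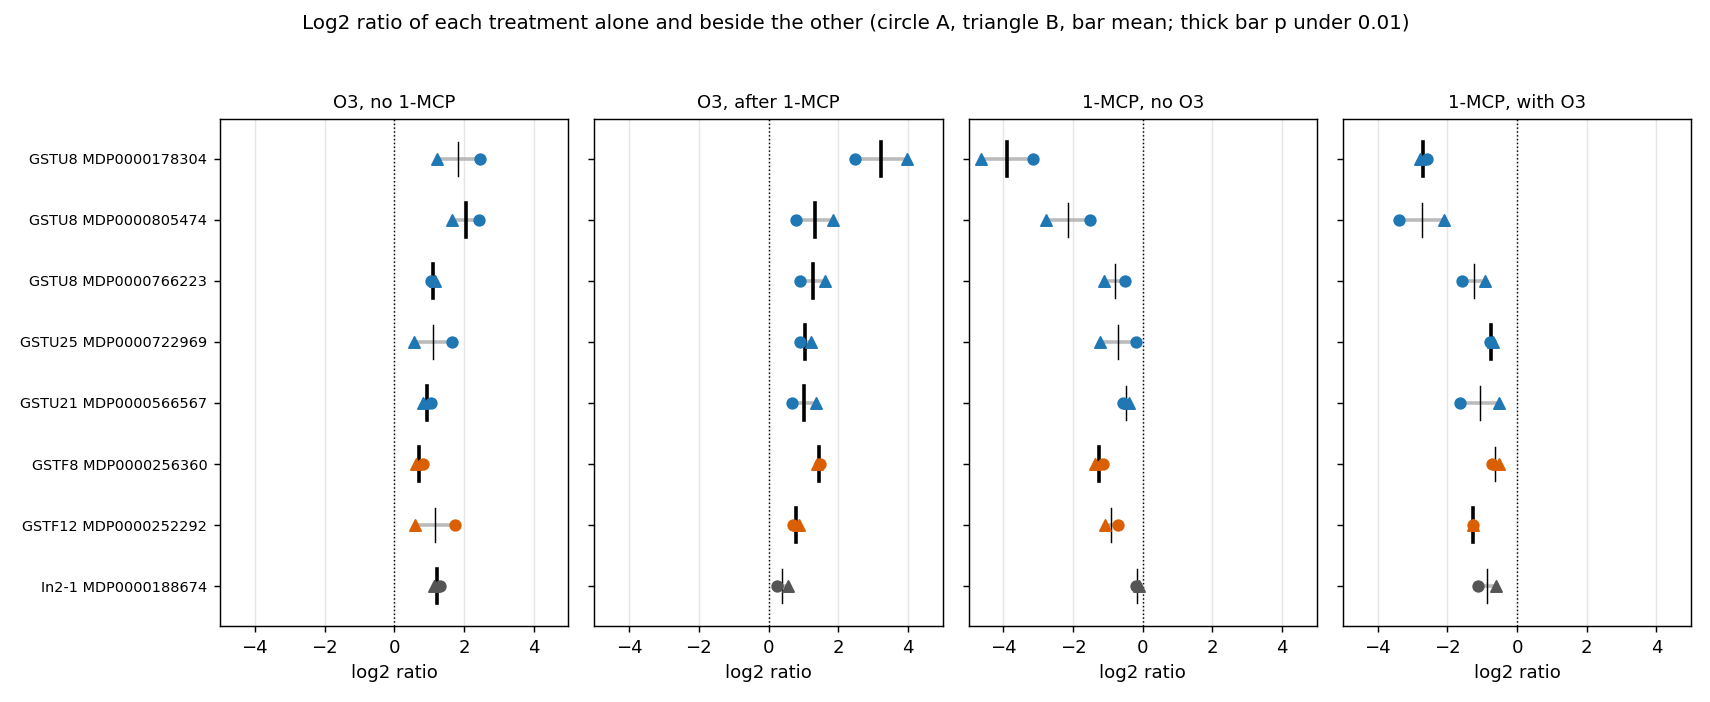
Log2 ratio (horizontal axis) of each treatment without and with the other: O3 vs Control, 1-MCP+O3 vs 1-MCP, 1-MCP vs Control and 1-MCP+O3 vs O3, with array or replicate A as a circle, B as a triangle and a bar at the mean, thick where the unadjusted p in limma was under 0.01 (blue tau, orange phi, grey In2-1). Every point lies above 0 for O3 and below 0 for 1-MCP, and the medians over the 8 genes are 1.15, 1.16, -0.85 and -1.16.

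Class tau is set beside class phi as a description without a test, since genes are not replicates. The mean log2 ratio of the 5 tau genes was -1.61 in 1-MCP vs Control and that of the 2 phi genes -1.08. In O3 vs Control the means were 1.41 and 0.95, and in 1-MCP+O3 vs O3 they were -1.70 and -0.95. The order of the classes was not settled by these means, because GSTF12, 1 of the 2 phi genes, was not above background in 1-MCP peel. With processed signals the phi mean was the farther from 0 in 1-MCP vs Control, at -2.14 against -1.90 for tau, and it was so in 1-MCP+O3 vs O3 as well. As fitted, tau minus phi was -0.26 on array A and -0.80 on array B of 1-MCP vs Control, 0.45 and 0.49 in O3 vs Control, and -0.99 and -0.50 in 1-MCP+O3 vs O3. It was 0.06 in replicate A and 0.88 in replicate B of 1-MCP+O3 vs 1-MCP, and in 1-MCP+O3 vs Control the means were -0.03 and 0.03.

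The size of the tau means rested on a pair of genes. GSTU8 (MDP0000178304) and GSTU8 (MDP0000805474) had the 2 ratios farthest from 0 among the tau genes in O3 vs Control, 1-MCP vs Control and 1-MCP+O3 vs O3. The medians of the 5 tau genes were -0.80, 1.12 and -1.24 in 1-MCP vs Control, O3 vs Control and 1-MCP+O3 vs O3, where the means of the phi genes were -1.08, 0.95 and -0.95. In 1-MCP vs Control both phi genes, at -1.25 for GSTF8 and -0.90 for GSTF12, were lower than 3 of the 5 tau genes. Class membership therefore did not order the genes, whose ranges overlapped in every comparison. Whether a probe also binds transcripts of other GST genes was not tested, and probe sequences were not used here.

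The levels of the 8 genes rose and fell together over the 8 extracts. Pearson's r ran from 0.64 to 0.97 over the 28 pairs of genes, with a median of 0.84. It was 0.72 to 0.95 among tau genes, 0.71 to 0.97 between tau and phi genes and 0.64 to 0.92 between In2-1 and the GST genes. These values describe 4 groups of 2 extracts on shared arrays and carry no test. Patterns as close were common on the array: among 33480 other sense probes, between 188 and 1246 had an r over 0.9 with a given member. The closest gene model was MDP0000865717 for GSTF12 (r = 0.998), MDP0000261644 for GSTU8 (MDP0000805474) (r = 0.996) and MDP0000775625 for GSTU25 (r = 0.995). None of the 16 gene models with the closest patterns, 2 for each member, was another member.

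Each gene model also has a probe for the opposite strand, and outside GSTF12 the mean ratios of these probes had the sign of their sense partners in the comparisons other than the interaction. Antisense signal was above background in all 16 channels for 4 genes, in 15 for GSTU8 (MDP0000178304), in 13 for GSTU8 (MDP0000766223), in 11 for GSTU8 (MDP0000805474) and in none for GSTF12, whose antisense probe is therefore given no direction. In O3 vs Control the other 7 antisense probes had mean ratios above 0, with a median log2 ratio of 0.60, all 7 nearer 0 than their sense partners, and 0 were called by limma, where 0.231% of all antisense probes were called higher. At an unadjusted p under 0.05, 3 of them passed, and the share of all antisense probes at that threshold was not computed. In 1-MCP vs Control the 7 had mean ratios below 0, with a median of -0.34, but only 3 were lower on both arrays, and 1 was called, against 0.717% of all antisense probes. The median was -0.64 in 1-MCP+O3 vs O3, with 6 of the 7 nearer 0 than the sense probe, where 2 were called lower against 0.423%. It was 0.40 in 1-MCP+O3 vs 1-MCP, where 2 were called higher against 0.406%. For 1-MCP+O3 vs Control 0 were called, and 0 passed an unadjusted p under 0.05 in limma, against 0.77% called of all antisense probes. Only 1 of the 7 pointed the same way on both arrays in that comparison, so matching signs of these means set no direction.

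GSTU8 (MDP0000178304) had the strongest antisense response. Its antisense probe had log2 ratios of -1.62 on array A and -2.62 on array B in 1-MCP vs Control and was called lower. In O3 vs Control it had 2.65 and 0.97, which was not called, and in 1-MCP+O3 vs O3 it fell by 2.27 ± 0.15 (SD, n = 2). Over the 8 arrays the sense and antisense ratios of this gene had the same sign on 8 of 8, with r = 0.95. The other antisense calls were In2-1, lower by -0.69 and -0.80 in 1-MCP+O3 vs O3, and GSTF8, higher by 0.69 and 1.15 in 1-MCP+O3 vs 1-MCP.

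For the remaining genes the antisense values were less regular. GSTU8 (MDP0000805474) had an antisense ratio of -0.12 in 1-MCP vs Control where its sense ratio was -2.15, and 0.42 against 2.05 in O3 vs Control. The antisense probe of GSTU21 gave 0.32 and 0.89 in O3 vs Control but -1.48 and 0.05 in 1-MCP+O3 vs O3. Sense and antisense ratios shared their sign on 5 to 8 of the 8 arrays. How much of the antisense signal came from antisense transcripts was not tested.

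**Figure D4:**
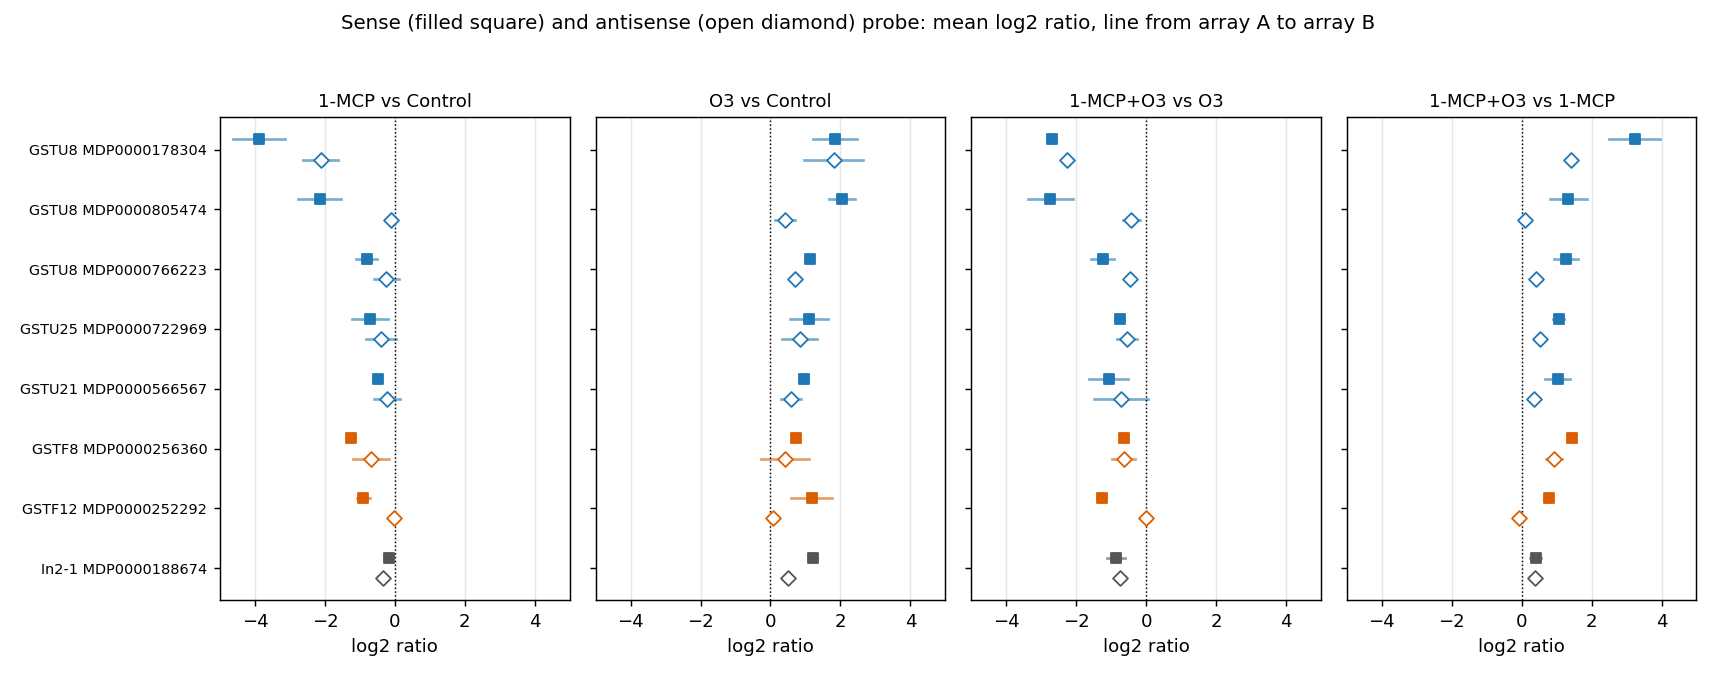
Log2 ratio (horizontal axis) of the sense probe (filled square) and the antisense probe (open diamond) of each gene in 4 comparisons, at the mean of both arrays, with a line from array A to array B (blue tau, orange phi, grey In2-1). Without GSTF12, whose antisense probe was not above background in any channel and stays near 0, the antisense medians are -0.34, 0.60, -0.64 and 0.40.

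The agreement of the 2 arrays differed between genes, and so did a check on the dye. The 3 comparisons among Control, O3 and 1-MCP+O3 close a loop on the same extracts, and its misfit, turned by the dye switch, gives the bias of Cy5 over Cy3 without any difference between extracts. For the members it ran from -0.72 for GSTU8 (MDP0000178304) to 0.36 for GSTU8 (MDP0000805474), on the log2 scale, where the median absolute bias of sense probes above background in all channels was 0.29. GSTF12 had -0.47 and In2-1 -0.03. Group means contain both dyes in equal number, so that a bias of this kind widens or narrows the gap between arrays A and B and leaves the mean in place. The loop itself missed closing by -0.53 to 0.93 over the members, and part of this did not turn with the dye. For GSTU21 the misfit was 0.68 in replicate A and 0.64 in replicate B. It was 0.93 and 0.24 for GSTU8 (MDP0000766223), and its cause was not tested. For GSTU8 (MDP0000178304) it changed sign, at -0.53 and 0.91. The O3 extract A was above the O3 extract B for all 8 genes, although each O3 extract was measured once in each dye. Control and O3 were measured on both slides, and their levels on slide 2 minus slide 1 ran from -0.62, for GSTF12 in O3, to 0.94, for GSTU8 (MDP0000766223) in O3. Because 1-MCP was measured on slide 1 alone and 1-MCP+O3 on slide 2 alone, slide and group cannot be told apart between the levels of these groups.

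Of the 5 other genes that the supplementary tables given here tie to GST, 2 did not share the fall after 1-MCP. GSTU19 (MDP0000138709), a tau gene, rose in 1-MCP vs Control with log2 ratios of 1.60 and 1.54, and a microsomal GST (MDP0000256240), a membrane-bound enzyme of separate origin, with 0.93 and 0.98. Both were called higher, where all 8 genes of the network were lower. In O3 vs Control, GSTU19 had -0.31 and 0.08 and the microsomal GST -0.47 and 1.04, and neither was called. Both rose again in 1-MCP+O3 vs O3, by 1.09 ± 0.06 and 1.09 ± 0.09 (SD, n = 2), where 1.37% of all sense probes were called higher. Both genes were taken from a part of the study's table that holds genes called after 1-MCP, so that their call in that comparison is no independent evidence.

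The 3 gene models tied to a GST protein in the study's network had ratios below 0 after 1-MCP and above 0 after O3 on both arrays, as the 8 genes did. The study built that network from ratios of these same arrays, so the shared pattern is no independent evidence. MDP0000303658 had -1.29 and -0.88 in 1-MCP vs Control, which was called, and 0.76 and 1.52 in O3 vs Control. MDP0000511650 had -1.54 and -3.03 in the first and 1.79 and 0.97 in the second, neither of them called, and rose by 1.45 and 3.90 in 1-MCP+O3 vs 1-MCP. MDP0000065895 had -0.098 and -0.33 after 1-MCP, not called, and was called higher after O3, at 1.00 and 1.05.

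A list of 12 genes from the same tables held genes of glutathione and thiol redox chemistry and a catalase (MDP0000699607). In O3 vs Control 1 of them was called higher. In 1-MCP vs Control 11 were called higher, the catalase among them, and 1 lower, where 2.26% of all sense probes were called higher. The higher ones included 2 glutaredoxins, which use glutathione to reduce protein disulfides, with log2 ratios of 3.44 (MDP0000615196) and 2.73 (MDP0000677842), and a glutathione peroxidase (MDP0000338065) with 0.74. The gene called lower was lactoylglutathione lyase (MDP0000275060), the glyoxalase that removes methylglyoxal with the help of glutathione. It had -1.30 and -1.20 in 1-MCP vs Control, 2.16 and 1.62 in O3 vs Control, and 0.96 and 1.62 in 1-MCP+O3 vs 1-MCP, all 3 of them called. Most of these rows come from the same part of the table, so the count of 11 describes the rows used and not the pathway.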

How the data were processed

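Per the file headers, the authors read the scans with Agilent Feature Extraction. The deposited intensity is a median per spot and local background in each dye, neither subtracted nor normalized, beside a processed intensity that is both. Of the measurement columns of an array, 14 were used here and 19 were not. Outlier spots were dropped, normexp (offset 50) corrected the background, log2 ratios were loess-normalized within arrays, and spots of a probe were averaged and turned to the first-named group. The offset draws dim ratios toward 0. Each contrast was fitted with limma 3.58.1 in R 4.3.3 on 2 values over all 133709 probes, called at an unadjusted p under 0.01 and adjusted by Benjamini-Hochberg. Channel levels were normalized by Aquantile. No set test was run. Fits were tested on simulated data. The supplementary values of the paper and its metabolite and protein data were not used here.

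The genes named are the members, their antisense probes, and the other GST and thiol redox genes and a catalase in the supplementary rows supplied. Also named are, for each member, the 2 sense probes with the closest levels. The members and lists were chosen with earlier results of these data known. Alternatives were no background correction, processed signals, median centring, a filter on dim probes, outliers kept, a joint fit with a dye term, fits on RNA extracts with and without a replicate block, trend and robust options, and leaving out each replicate. A crossed block was chosen after seeing the data. Reading A and B as pairs was checked on 24877 probes: deviations from the group mean correlated at 0.66 between 1-MCP and 1-MCP+O3, which share their dyes, and at -0.42 between O3 and 1-MCP+O3.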

Additional observations from a re-analysis of the deposited data

How the results depend on the processing

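Over 11 alternatives and 6 comparisons, 518 of 528 gene ratios kept their direction, and in 1-MCP vs Control, O3 vs Control, 1-MCP+O3 vs O3 and 1-MCP+O3 vs 1-MCP all did. These counts include values whose direction could not change. The filter on dim probes and the trend and robust options leave a ratio as it was. The extract fits with and without a block gave equal class means, and leaving out a replicate restates the value of the other. The calls were less stable, with 91 values losing theirs and 52 gaining one. Causes were not tested. In 1-MCP vs Control, 2 genes were called, against 0 with median centring and 5 in a joint fit of 8 arrays with a dye term. In O3 vs Control, 5 were called, against 3 with processed signals, 0 with median centring, 8 in the joint fit and 3 with trend and robust options. The genes called changed as well. With processed signals, and with trend and robust options, they were GSTU8 (MDP0000178304), GSTU8 (MDP0000805474) and GSTF12. Of the 5, only GSTU8 (MDP0000805474) kept its call there. The 2 calls in 1-MCP+O3 vs Control were 1 without background correction and 0 with processed signals, median centring, a filter on dim probes, the joint fit, the extract fit without a block, and trend and robust options. For 1-MCP+O3 vs O3, 3 were called, against 1 with median centring and 8 in the joint fit. For 1-MCP+O3 vs 1-MCP, 7 were called, against 3 with processed signals, the joint fit or the extract fit without a block. In the interaction, 0 were called, against 1 with median centring and 3 in the joint fit.

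Leaving out a replicate leaves a lone value per gene. The median log2 ratio of the members was then -1.16 to -0.64 in 1-MCP vs Control and 0.99 to 1.49 in O3 vs Control. It was -1.42 to -0.80 in 1-MCP+O3 vs O3 and 0.85 to 1.38 in 1-MCP+O3 vs 1-MCP. In the interaction it changed sign, from -0.75 to 0.36. The median ratio in 1-MCP+O3 vs Control, 0.21, was 0.53 with median centring, 0.044 in the extract fits and 0.0072 to 0.081 without a replicate.

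Whether the letters A and B pair the extracts was not settled: deviations of same-lettered extracts correlated between -0.56 and 0.66, they shared arrays, and Control had the opposite dye to the treated groups on its arrays, so dye and pairing cannot be told apart. With a replicate block the extract fit called 4 genes in 1-MCP vs Control, 3 in O3 vs Control, 0 in 1-MCP+O3 vs Control, 5 in 1-MCP+O3 vs O3, 3 in 1-MCP+O3 vs 1-MCP and 0 in the interaction. A crossed block, chosen after seeing the data, called 4, 0 and 6 in 1-MCP vs Control, 1-MCP+O3 vs Control and 1-MCP+O3 vs O3. It was also fitted in O3 vs Control, where its count is not given here.

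The reversed ratios were small or came from discordant replicates. GSTF8 in 1-MCP+O3 vs Control was -0.13 in the extract fits with and without the replicate block, and GSTU25 ran from -0.011 to 0.70 when a replicate was left out. For the interaction, GSTU8 (MDP0000805474) was 0.17 with processed signals and -1.86 to 0.67 without a replicate, GSTU8 (MDP0000766223) 0.28 in the extract fits and -1.08 to 0.20 without a replicate, and GSTU25 0.097 with median centring and -0.58 to 0.52 without a replicate.

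Over all sense probes, calls in 1-MCP vs Control numbered 2745, against 812 with median centring and 7011 in the joint fit at the extremes, in O3 vs Control 1449 against 77 and 4707, in 1-MCP+O3 vs Control 2145 against 415 and 8729, in 1-MCP+O3 vs O3 1832 against 419 and 8655, in 1-MCP+O3 vs 1-MCP 2419 against 239 without replicate B, and in the interaction 918 against 191 without replicate A and 1536 in the joint fit. GSTF12 was limited by signal over background, with 12 of 16 channels above it.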
